A study of Mus musculus with 4 samples.

Results

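Natural killer cells were the 66 barcodes, of 14982 kept from 4 libraries of gonadal adipose stromal vascular cells, that carried at least 2 UMIs of Ncr1 and Klrb1c together and little or no RNA of the genes that mark other lineages. They were chosen on their own counts: Cd3e and Cd3g, Cd8b1 and Csf1r at 0, Cd79a and Pdgfra at most 1, and Mzb1 under 10. Ncr1 encodes NKp46 and Klrb1c encodes NK1.1, receptors by which mouse NK cells are recognised. They made up 0.441% of the kept barcodes, and 34 of them came from the libraries labelled CD45-.

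NK cells are innate lymphocytes that kill stressed, infected or transformed cells without a rearranged antigen receptor. A target is read through a balance of activating receptors, which signal through adaptors such as Tyrobp and Fcer1g, and of inhibitory Ly49 and NKG2 receptors that bind MHC class I. Killing uses perforin and granzymes, and activated NK cells release interferon gamma and chemokines. In adipose tissue they lie among macrophages, T cells, other innate lymphoid cells and the stromal progenitors, and they are among the cells described as clearing senescent cells.

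All 4 libraries came from male p16-CreERT2/R26-LSL-tdTomato mice of 18 months that had been given tamoxifen. In these mice the p16 promoter drives the tamoxifen-dependent Cre, which removes a stop cassette ahead of tdTomato, so that a cell expressing p16 at the time of induction, and its progeny, can carry tdTomato. The stromal vascular fraction was sorted on CD45 and on tdTomato into a Tom+ and a Tom- group of CD45- cells and the same of CD45+ cells, written below as CD45- Tom+, CD45- Tom- and so on. The labels' protocol names a CD45- Tom- sort a second time where CD45+ Tom- would stand, and the groups follow the sample titles. Genotype, age, sex, tissue and tamoxifen were common to all of them, the number of mice behind each library is not given in the sources used here, and there was 1 library per group. The comparison of the Tom+ with the Tom- library of each CD45 label therefore had no replicate check. No test between groups was made, and every interval below is a 95% interval for counting error alone.

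Barcodes were kept where more than 1000 but fewer than 7000 genes were detected and where mitochondrial UMIs made up less than 8%. The deposited libraries held 64083756 to 139397501 UMIs, and a kept barcode had a median of 18587 to 20241. A UMI of Ptprc, the gene of CD45, was found in 3349 of 4145 kept barcodes of the library labelled CD45- Tom+, 2027 of 4038 of CD45- Tom-, 1568 of 1981 of CD45+ Tom+ and 2578 of 4818 of CD45+ Tom-. The share was thus not larger in CD45+ Tom+ than in CD45- Tom+, and only a little larger in CD45+ Tom- than in CD45- Tom-. Of the Pdgfra-positive progenitors, which should lack Ptprc, 18.9% had a UMI of it, at a median depth of 24304.5 UMIs. Pairs of libraries listed 26 to 4394 identical barcode sequences, of which 1 to 21 were kept in both. No NK cell was kept under the same sequence in another library, although 1 of CD45+ Tom+ had a sequence that was also listed in CD45- Tom+.

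The NK cells numbered 24 in CD45- Tom+, 10 in CD45- Tom-, 14 in CD45+ Tom+ and 18 in CD45+ Tom-. They were small next to the other kept barcodes, with a median of 6749 UMIs and 2241 genes. Their summed counts, on which all levels below rest, were 199746, 74957, 88737 and 135370 UMIs. Levels are given in CPM, a gene's UMIs divided by this sum and scaled to 1000000, and in the order of the libraries just named where none is given. Ptprc was found in 65 of the 66 cells, including 23 of 24 and 10 of 10 in the libraries labelled CD45-.

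The label was checked against 10 NK genes that the rule did not use, among them Gzma, Klrd1, Eomes and Nkg7. The median cell had UMIs of 9 of the 10, 51 cells had at least 7, and 3 had under 4. Of those 3, 2 were cells of CD45- Tom+ with 2 Ncr1 UMIs, none of the 10 genes and 462 and 521 UMIs of Igkc. The third was a cell of CD45- Tom- with 5 Ncr1 UMIs and 3 of the 10 genes. Some other members carried genes of another cell type. In CD45- Tom+, a cell of 34873 UMIs held 9 of the 10 NK genes together with 237 UMIs of H2-Aa and 283 of H2-Ab1, MHC class II genes of antigen-presenting cells, 11 of Flt3 and 6 of Xcr1. Another, of 21652 UMIs, held 6 of the 10 with 37 UMIs of Pecam1 and 19 of Cdh5, genes of endothelium. Doublet scoring marked 484 of the 14982 kept barcodes and none of the 66.

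Around the threshold of 2 UMIs, 14 members lay just inside and 32 barcodes with 1 UMI just outside. Just inside, Gzma was found in 10 of 14 cells, Klrd1 in 12 and Nkg7 in 11. Just outside, they were found in 15, 19 and 23 of 32, and Col3a1, a collagen gene of the stroma, stood at 1424 CPM against 58.3 CPM just inside. Of the 139 kept barcodes with at least 2 UMIs, 48 were left out for Cd3e or Cd3g and 25 for another gene of the rule.

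The genes that stood out most from the other kept barcodes were those of cytotoxic granules and of the receptor families of the NK gene complex. The 12 with the largest lowest ratio over the 4 libraries were Gzma, Ncr1, Klra4, Klrb1c, Klra7, Klrb1f, Klra9, Klre1, Klra1, Il12rb2, Xcl1 and Klrd1, of which Ncr1 and Klrb1c belonged to the rule. Gzma, which encodes the tryptase granzyme A, was 503 to 1196 times its level in the other barcodes of its own library. Klra4 was 234 to 689 times, Klre1 105 to 523 times and Klrd1, the partner of the NKG2 receptors, 87.9 to 380 times. Since the cells had been chosen by their counts these ratios are a description. The Klra genes are near-identical copies of one another, so that the split of counts among them is uncertain.

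Ncr1 lies on mouse chromosome 7 at chr7:4337724-4345164 on the plus strand and Gzma on chromosome 13 at chr13:113093825-113100981 on the minus strand (mm10). The 300 bases around the start of both, 250 before and 50 after, are shown because these genes were the furthest above the other barcodes and because both windows hold TGTGGT, the core bound by Runx factors, on one strand or the other. Runx3, the family member best known in cytotoxic lymphocytes, stood at 220, 280, 146 and 288 CPM in the NK cells of the 4 libraries. The sequences are those of RefSeq on GRCm38.p6, chr7:4337465-4337764 (plus strand) and chr13:113100932-113101231 (minus strand), written 5′ to 3′ with each match to TGTGGT or its reverse complement ACCACA in capitals.
Ncr1: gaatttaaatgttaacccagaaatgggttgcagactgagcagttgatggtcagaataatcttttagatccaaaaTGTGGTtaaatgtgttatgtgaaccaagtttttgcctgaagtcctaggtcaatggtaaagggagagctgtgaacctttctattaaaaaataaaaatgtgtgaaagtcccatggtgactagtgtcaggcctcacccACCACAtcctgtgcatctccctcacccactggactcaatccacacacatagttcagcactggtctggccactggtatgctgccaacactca
Gzma: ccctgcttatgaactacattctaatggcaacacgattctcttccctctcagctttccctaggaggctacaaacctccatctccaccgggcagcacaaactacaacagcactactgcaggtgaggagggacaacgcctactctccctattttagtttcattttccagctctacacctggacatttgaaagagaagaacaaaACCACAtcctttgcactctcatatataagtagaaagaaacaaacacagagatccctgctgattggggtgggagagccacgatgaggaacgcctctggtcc
The Ncr1 window held 2 matches and the Gzma window 1. Of the 12 leading genes 11 had a promoter window, and 6 of the 11 held the motif (4 of 9 without Ncr1 and Klrb1c, which led because of the rule), beside 18.9% of 27025 genes (16.8% of 32851 windows). A match to these letters is a description of the window and not a binding site.

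As a share of the kept barcodes the NK cells were 0.579% in CD45- Tom+ (exact binomial interval 0.371 to 0.860) and 0.248% in CD45- Tom- (0.119 to 0.455). In the CD45+ libraries they were 0.707% in Tom+ (0.387 to 1.18) and 0.374% in Tom- (0.222 to 0.590). The share was thus higher in the Tom+ library of both labels, by 2.34-fold (1.08 to 5.48) in the CD45- pair and by 1.89-fold (0.871 to 4.03) in the CD45+ pair, where the interval included 1. Without the 4 members of over 15000 UMIs, the log2 ratio of the CD45- pair was 1.03 (-0.12 to 2.28) in place of 1.23 (0.11 to 2.45), so that its interval included 0 as well. The interval also included 0 with at least 3 UMIs of Ncr1 and Klrb1c required, at 0.96 (-0.27 to 2.30), and with both genes required, at 0.60 (-0.71 to 1.99). The log2 ratio of the CD45+ pair, 0.92 (-0.20 to 2.01), was 0.19 (-1.23 to 1.48) at 3 UMIs. The make-up of the libraries differed with the tdTomato label as well, and its part in the share was not tested. Barcodes with at least 10 UMIs of Mzb1, a gene of plasma cells, were 28.1% and 28.8% of the kept barcodes in the Tom+ libraries and 1.88% and 2.64% in the Tom- libraries. Of the kept barcodes with a UMI of Ptprc the NK cells were 0.687%, 0.493%, 0.893% and 0.698%, in the order given, a ratio of 1.39 (0.637 to 3.28) and 1.28 (0.589 to 2.72), and both intervals included 1.

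CD8 T cells, the other cytotoxic lymphocytes of these libraries, had the opposite distribution. They were called from at least 2 UMIs of Cd3e and Cd3g and of Cd8a and Cd8b1, with the other lineage genes low. Cd4, Ncr1 and Klrb1c had to be at 0, so that T cells with a UMI of either NK gene were left out of every comparison below. The CD8 T cells numbered 30, 50, 18 and 93. Their share of the kept barcodes was 0.724% in CD45- Tom+ and 1.24% in CD45- Tom-, and 0.909% in CD45+ Tom+ and 1.93% in CD45+ Tom-. There were 80 NK cells per 100 CD8 T cells in CD45- Tom+ and 20 in CD45- Tom-, and 77.8 in CD45+ Tom+ and 19.4 in CD45+ Tom-. The ratio of NK to CD8 T cells was 4-fold (1.84 to 9.37) and 4.02-fold (1.85 to 8.55) higher in the Tom+ libraries. Part of it was the lower share of CD8 T cells in the Tom+ libraries, 0.585-fold (0.359 to 0.937) and 0.471-fold (0.267 to 0.785). Over other filters and member rules, tried after the data were seen, the ratio ranged from 2.59 to 5-fold in the CD45- pair and from 2.43 to 4.25-fold in the CD45+ pair, where at least 3 UMIs of the rule's genes gave an interval that included 1 (0.908 to 5.94).

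**Figure D1:**
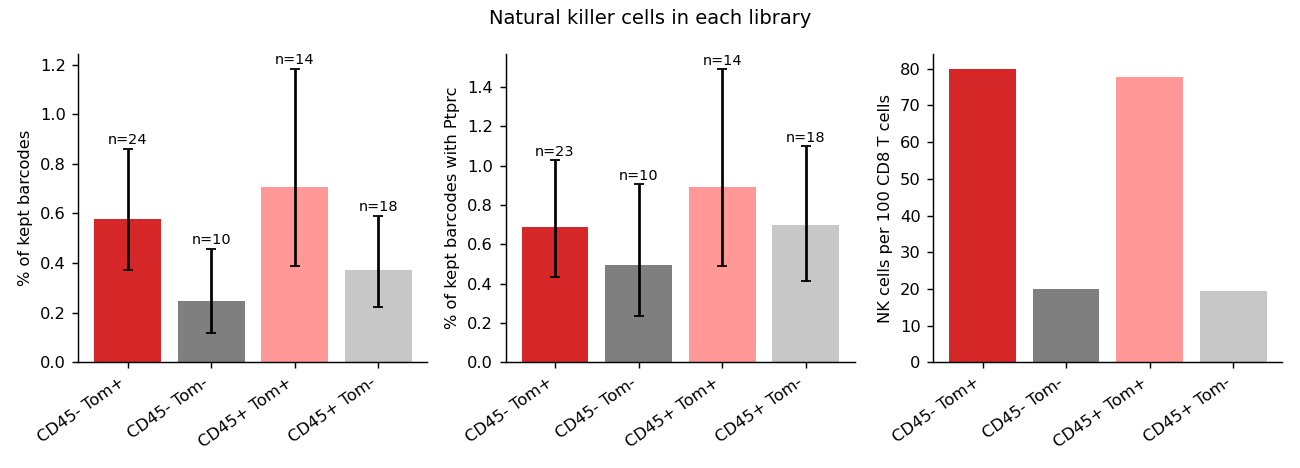
NK cells in the 4 libraries as a percentage of kept barcodes (left), as a percentage of kept barcodes with a Ptprc UMI (middle) and per 100 CD8 T cells (right). Bars are the value of the 1 library of each group. In the left and middle panels error lines are exact 95% binomial intervals for counting error. There n is the number of NK cells (left) and of NK cells with a Ptprc UMI (middle). The right panel, drawn without error lines, shows 80 and 77.8 in the Tom+ libraries against 20 and 19.4 in the Tom- libraries.

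The effector genes were those of NK cells with granules. Gzma stood at 2934 CPM in CD45- Tom+, 1521 in CD45- Tom-, 4496 in CD45+ Tom+ and 3553 in CD45+ Tom-, with UMIs in 51 of the 66 cells. In the CD8 T cells it was at 4.19 CPM. Gzmb, the granzyme that cleaves caspases, stood at 516, 253, 778 and 451 CPM in 30 cells, against 23.9 CPM in CD8 T cells. Prf1, the pore-forming perforin, was at 496, 160, 710 and 672 CPM in 58 cells, against 83.1 CPM. Every one of these levels lay above that of the CD8 T cells of the same library. The other granzymes were sparse: Gzmk was found in 1 NK cell but stood at 155 CPM in the CD8 T cells, Gzmm was found in 2 NK cells and Gzmc in 1.

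Nkg7 and Ccl5 lay close in NK and CD8 T cells, while Ifng and the chemokine genes Xcl1, Ccl3 and Ccl4 were higher in NK cells. Nkg7, a granule membrane protein, stood at 1638 CPM over all NK cells and 1108 CPM over all CD8 T cells. Ccl5, a chemokine stored by both, was at 6491 and 5985 CPM. Xcl1, which attracts cross-presenting dendritic cells, was at 680 CPM in NK cells and 90.9 CPM in CD8 T cells, and Ifng was at 150 and 74.7 CPM. Ccl3 and Ccl4, chemokines of activated cells, were at 243 and 948 CPM in NK cells and 22.7 and 183 CPM in CD8 T cells.

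Since NK cells and CD8 T cells differed in depth, with medians of 6749 and 7884 UMIs per cell beside 24304.5 in the progenitors, the same genes were counted after each cell had been thinned to 2000 UMIs, which left out no NK cell. Gzma was then found in 66.7% of NK cells, 1.57% of CD8 T cells and 0.243% of Pdgfra-positive progenitors, which should lack it. Without thinning these were 77.3%, 3.66% and 1.37%. Prf1 was found in 50.0%, 17.3% and 0.0304%, Xcl1 in 51.5%, 11.5% and 0.0913%, and Klrd1 in 54.5%, 11.0% and 0.152%. Nkg7 was found in 89.4% of NK and 79.1% of CD8 T cells, and Eomes in 40.9% and 38.7%, shares that lay close together.

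Adaptor genes of the receptors were found in nearly every cell and the receptor genes in fewer. Tyrobp, the DAP12 adaptor, stood at 1402, 1628, 1758 and 1913 CPM, and in the CD8 T cells at 90.9 CPM. Fcer1g, the adaptor of NKp46 and CD16, was at 1101, 1414, 1251 and 1477 CPM in 65 of 66 cells, against 70.6 CPM in CD8 T cells. Klrk1, which encodes NKG2D, a receptor for stress ligands, was at 360, 867, 800 and 724 CPM, and Klrd1, which encodes CD94, at 320, 547, 699 and 739 CPM. For the Ly49 receptors, which recognise MHC class I, Klra4 stood at 451, 387, 766 and 561 CPM and Klra7 at 421, 427, 766 and 576 CPM. Not all Ly49 genes are inhibitory, and Klra4 was also on the list of activating receptors. Klra4 was found in 48 cells and Klra7 in 42. In all 4 libraries the level in NK cells of each of these receptor genes was above that in CD8 T cells. Genes of the T cell receptor complex that the rule had not used were nearly absent, Cd3d in 2 cells and Trac in 4. Lat, the T cell adaptor, stood at 26.1 CPM against 258 CPM in CD8 T cells. Trbc1 was an exception, found in 55 NK cells at 495 CPM beside 545 CPM in CD8 T cells.

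Among receptors for cytokines, Il2rb, the shared chain of the IL-2 and IL-15 receptors, stood at 1156, 1908, 1273 and 1271 CPM and in 64 cells. Il7r, by which naive T cells and helper-like innate lymphoid cells survive, was found in 9 cells at 34.1 CPM, against 324 CPM in CD8 T cells. The TGF-beta receptor gene Tgfbr2 was found in 35 cells at 104 CPM and Tgfbr1 in 13 cells at 28.1 CPM. Tgfb1 itself stood at 130, 147, 22.5 and 185 CPM.

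Of the transcription factors of the lineage, Eomes, which distinguishes NK cells from ILC1, stood at 215, 454, 372 and 236 CPM in 42 cells. Tbx21, which encodes T-bet, was at 75.1, 120, 158 and 236 CPM in 36 cells. Of the 19 genes listed for ILC1 and tissue residence 17 had UMIs, the others being Zfp683, which encodes Hobit, and Cd3g, which the rule set to 0. They summed to 3049, 4242, 2119 and 3080 CPM. Most of these UMIs were of Ly6e, Xcl1, Rgs1 and Cd69, which are not limited to ILC1 and stood at 702, 680, 658 and 299 CPM over all NK cells. Itga1, the integrin CD49a of ILC1, was found in 12 cells and Cxcr6 in 2. Itga2, the integrin CD49b of circulating NK cells, was found in 37. With 0 UMIs among 498810, Zfp683 lay below a floor of 3 counts, or 6.01 CPM. Pdcd1 was at 0 as well, and at 33.5 CPM in the CD8 T cells. Only 7 kept barcodes met the rule for ILC2, too few for a comparison.

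**Figure D2:**
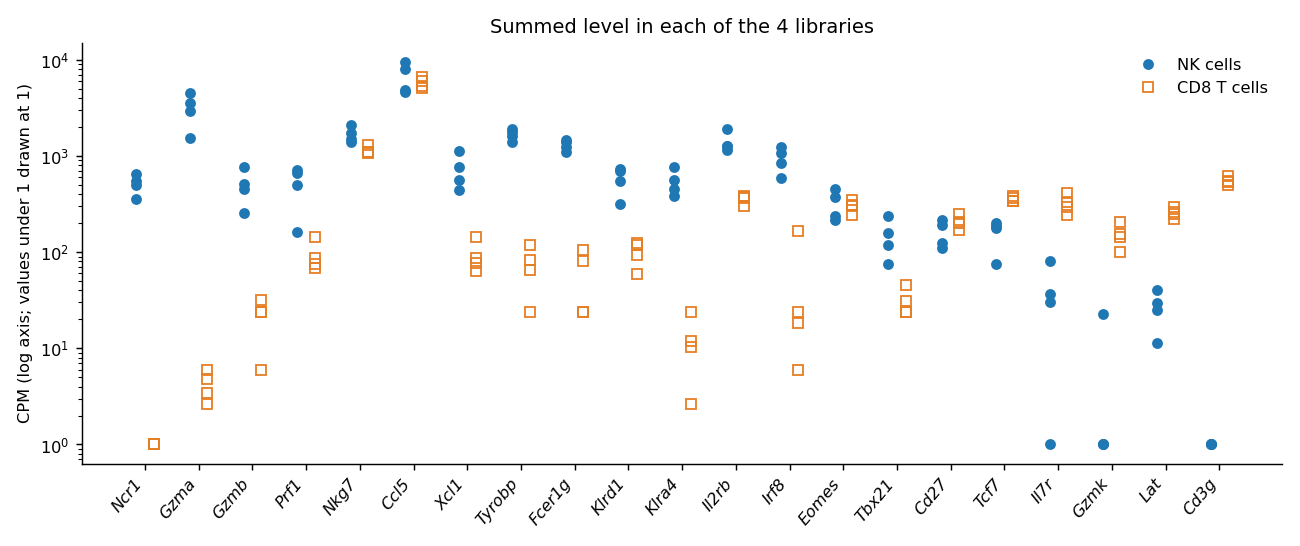
Level in CPM (log axis, values under 1 drawn at 1) of 21 genes in NK cells (filled circles) and CD8 T cells (open squares), 1 point per library. Gzma, Gzmb, Prf1, Tyrobp and Klrd1 lie higher in NK cells in all 4 libraries, while Gzmk, Lat and Il7r lie higher in CD8 T cells; Ncr1 and Cd3g were used to choose the cells.

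The NK cells were not uniform, and many of the listed genes varied with the level of Gzma. Of the 66 cells 15 had no Gzma UMI, 28 had 1 to 19 and 23 had 20 or more. All 3 ranges were found in every library, as 6, 8 and 10 cells in CD45- Tom+, 3, 5 and 2 in CD45- Tom-, 2, 7 and 5 in CD45+ Tom+, and 4, 8 and 6 in CD45+ Tom-. Their median depth was 7105, 6996.5 and 6014 UMIs, lowest in the cells with most Gzma. The ranges are cuts in a continuous count and not cell types: 4 cells had 15 to 24 Gzma UMIs and 10 had 1 to 3.

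Cells with many Gzma UMIs carried the other genes of late maturation. From no Gzma to 20 or more, Prf1 stood at 129, 256 and 1253 CPM and Ccl5 at 2666, 2811 and 15021 CPM. Gzmb stood at 120, 29.3 and 1530 CPM and was found in 2, 5 and 23 cells, that is, in all of the cells of the highest range. Irf8, a transcription factor of NK effector function, was at 323, 469 and 2216 CPM. Klrg1, a receptor of terminally mature NK cells, was found in 0, 1 and 9 cells, and Itgam, the maturation marker CD11b, stood at 55.3, 29.3 and 198 CPM. Zeb2, which drives terminal maturation, was at 64.6, 105 and 297 CPM, and Cma1, a protease gene, at 36.9, 41.9 and 317 CPM. For each of these the counting interval of the highest range lay above those of the other ranges.

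The genes of early NK cells ran the other way. Cd27, a receptor lost as NK cells mature, stood at 221, 180 and 39.6 CPM across the same ranges, and Tcf7, a factor of early NK cells, at 258, 172 and 19.8 CPM. Ltb, a lymphotoxin subunit, was at 267, 155 and 13.2 CPM, Xcl1 at 1227, 733 and 204 CPM, and Emb, an adhesion gene, at 1208, 1374 and 257 CPM. Il7r was found in 7, 2 and 0 cells. The receptor gene Klrd1 differed less, at 434, 561 and 567 CPM. Klra4 was at 286, 620 and 554 CPM, Klra7 at 341, 540 and 633 CPM and Klre1 at 286, 364 and 514 CPM. Ncr1 was at 507, 394 and 626 CPM, but the rule had used it to choose the cells. Eomes was at 129, 352 and 290 CPM. Like the Klra genes and Klre1, it was lowest in the cells without Gzma. Over the 66 cells, which share 4 libraries and differ in depth, Spearman's rho with Gzma was 0.76 for Gzmb, 0.73 for Prf1, 0.72 for Irf8 and 0.69 for Ccl5, and -0.51 for Ltb, -0.50 for Cd27 and -0.45 for Xcl1. Within each library the sign was the same for all 7 genes, with rho for Xcl1 from -0.85 to -0.34 and for Prf1 from 0.55 to 0.84. Some values were weak. In the 10 cells of CD45- Tom- rho was 0.14 for Irf8, -0.23 for Cd27, 0.35 for Gzmb and 0.39 for Ccl5. For Ltb it was -0.31 in CD45+ Tom+.

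**Figure D3:**
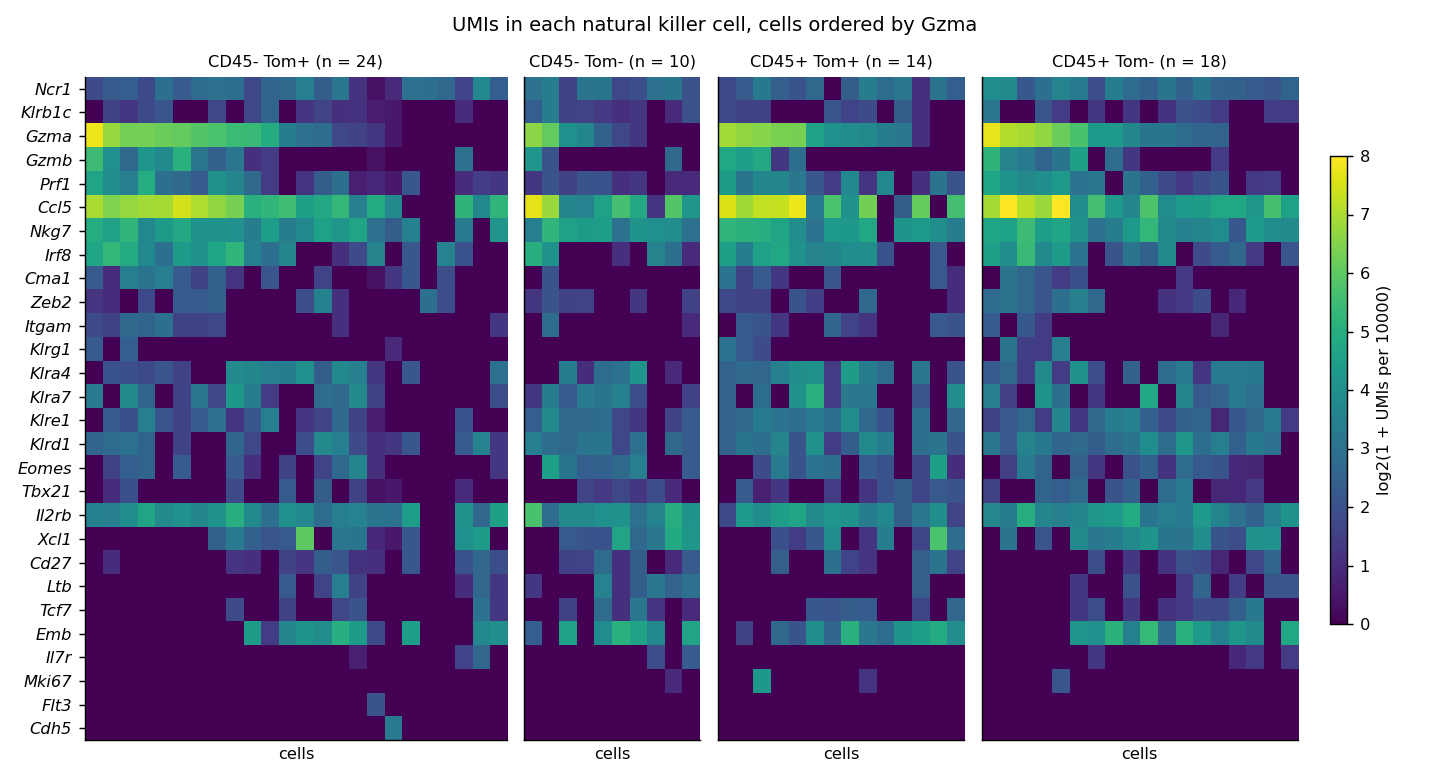
Each column is 1 NK cell, ordered within its library by Gzma, and each row is 1 gene; colour is log2(1 + UMIs per 10000). Gzmb, Ccl5, Irf8 and Cma1 are brightest at the left of every panel, among cells with many Gzma UMIs, while Xcl1, Cd27, Ltb, Tcf7 and Emb lie mostly to the right; the cells with Flt3 and with Cdh5 UMIs are those described individually.

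UMIs of Mki67, Top2a and Ube2c, genes of dividing cells, lay mostly in a single cell. Mki67 was found in 4 NK cells, and 1 cell of CD45+ Tom+ held 28 of its 29 UMIs in that library, with 27 of Top2a and 18 of Ube2c. Of the 735 UMIs of the 15 cell cycle genes in all NK cells, which include the widely expressed Hmgb2 and Tubb5, it held 239. That cell also had 144 UMIs of Gzma and 238 of Ccl5. Of the senescence genes, Cdkn2a, which encodes p16 and whose promoter drives the Cre, had no UMI in any NK cell of the Tom+ or the Tom- libraries, and neither had Cdkn2b. Cdkn1a, which encodes p21, was found in 15 cells at 65.1, 53.4, 78.9 and 59.1 CPM, levels that were not distinguishable at this depth. At the summed depth of each library the absence of Cdkn2a allows levels of up to 15.02, 40.02, 33.81 and 22.16 CPM (3 counts).

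TdTomato, on which the cells were sorted, was found in 23 of 24 and 14 of 14 NK cells of the Tom+ libraries and in 5 of 10 and 10 of 18 of the Tom- libraries. It stood at 1006 CPM in CD45- Tom+ (Poisson interval 872 to 1155) and 107 in CD45- Tom- (46.1 to 210), and at 1206 in CD45+ Tom+ (988 to 1457) and 177 in CD45+ Tom- (114 to 264). The median NK cell had 3.5, 0.5, 9 and 1 UMIs, in the same order. CD8 T cells had medians of 4.5, 0, 3.5 and 0 and progenitors of 5, 0, 3 and 0. In CD45- Tom+, 69 of the 201 tdTomato UMIs of NK cells lay in the cell with endothelial genes. In NK cells the counts per cell overlapped between Tom+ and Tom- libraries.

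Immunoglobulin RNA, which NK cells do not make, moved with the tdTomato label in NK cells, CD8 T cells and progenitors alike. An NK cell had 192 to 521 UMIs of Igkc in CD45- Tom+ (median 254.5) and 100 to 506 in CD45+ Tom+ (median 188). In CD45- Tom- it had 5 to 37 (median 14.5) and in CD45+ Tom- 4 to 28 (median 13). The NK cells of the Tom+ and the Tom- libraries did not overlap. CD8 T cells had medians of 265.5, 14, 185.5 and 13 and progenitors of 251, 14, 186.5 and 13, nearly those of the NK cells in each library. Immunoglobulin genes took 6.04% and 5.30% of the NK cells' UMIs in the Tom+ libraries and 0.370% and 0.355% in the Tom-. The 10 plasma cell markers summed to 63861 and 55693 CPM in the NK cells of the Tom+ libraries against 3936 and 3775 in the Tom-. Over all kept barcodes they summed to 259943 and 264212 CPM against 14995 and 19913.

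**Figure D4:**
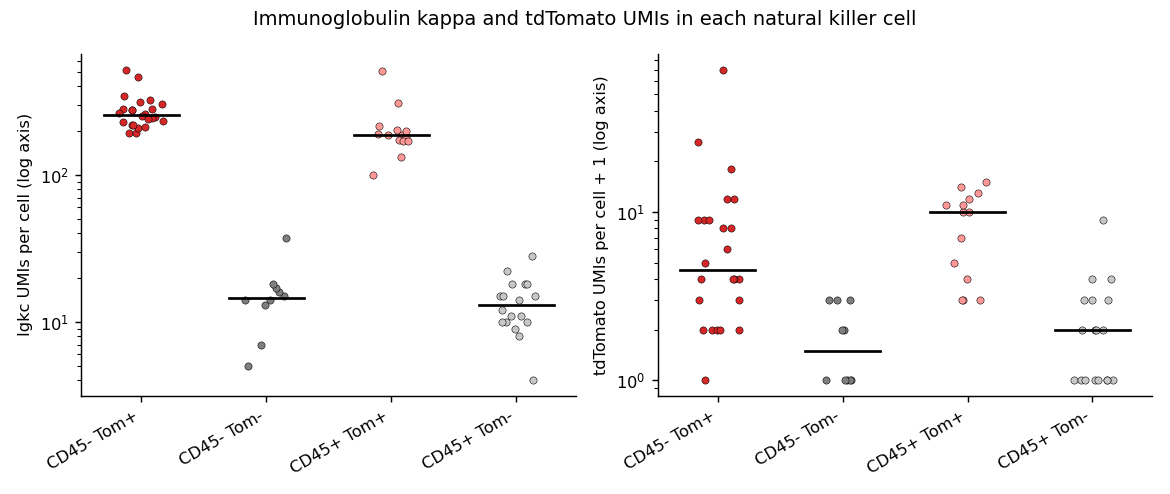
UMIs of Igkc (left, log axis) and of tdTomato plus 1 (right, log axis) in each NK cell of the 4 libraries; each point is a cell and each line the median. Igkc in the Tom+ libraries (100 to 521) lies wholly above the Tom- libraries (4 to 37), while tdTomato overlaps.

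The question put to the NK cells was which genes differed between the Tom+ and Tom- libraries of each CD45 label. Of 2950 genes whose mean level in the CD45- pair reached 50 CPM, 242 (8.2%) were at least 2-fold higher in Tom+ and 445 (15.1%) at least 2-fold lower. In the CD45+ pair, of 2988 genes, 307 (10.3%) were higher and 249 (8.33%) lower. Of 2454 genes measured in both pairs, 30 (1.22%) were higher in both, 35 (1.43%) lower in both and 40 past 2-fold in opposite directions. The sign was the same in 47.8% of these genes. These shares are the background against which the lists below were read. With 10 to 24 cells a library, most differences of single genes rested on few UMIs. Of the 199746 UMIs of CD45- Tom+, 34873 and 21652 came from the cells with genes of antigen-presenting cells and of endothelium. Without the members of over 15000 UMIs, 629 genes were past 2-fold in the CD45- pair, in place of 687. The part of these cells in the counts of the lists below was not tested. The median over all genes was -0.18 (log2) in the CD45- pair and -0.01 in the CD45+ pair.

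Gzma, Gzmb and Prf1, which encode 2 granzymes and perforin, were higher in the Tom+ library of the CD45- pair, while in the CD45+ pair the difference of Gzma and Gzmb rested on a single cell. The log2 ratio of Tom+ to Tom- of Gzma was 0.95 (0.66 to 1.25) in the CD45- pair and 0.34 (0.14 to 0.53) in the CD45+ pair. That of Gzmb was 1.02 (0.31 to 1.81) and 0.79 (0.27 to 1.31). Without the cycling cell of CD45+ Tom+, which held 144 of its 399 Gzma UMIs, the CD45+ ratios were -0.03 for Gzma and -0.29 for Gzmb. In the CD45- pair, Gzma ranged from 0.35 to 1.57 over the settings tried, and requiring 3 UMIs of the rule's genes in place of 2 brought Gzmb to -0.069. For Prf1 it was 1.63 (0.76 to 2.63) in the CD45- pair but 0.08 (-0.41 to 0.56) in the CD45+ pair, and for Nkg7 it was -0.09 and 0.25. Prf1 ranged from 1.23 to 3.06 in the CD45- pair and from -0.78 to 0.21 in the CD45+ pair over the settings tried. With the CD45- and CD45+ libraries summed, it was 0.20 and Gzma 0.27. Of the 20 genes of the cytotoxic list 13 passed the level in the CD45- pair, of which 2 were higher past 2-fold (Gzmb and Prf1) and 1 lower (Serpinb6b). In the CD45+ pair 14 passed, of which 1 was higher (Serpinb9b), and the medians of the list were -0.09 and 0.10.

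Among the cytokine genes, Xcl1 was lower in the Tom+ library of both pairs. It stood at 561 CPM in CD45- Tom+ against 1134 in CD45- Tom-, and at 440 in CD45+ Tom+ against 761 in CD45+ Tom-. Its log2 ratios were -1.02 (-1.44 to -0.59) and -0.79 (-1.36 to -0.25), and they lay below 0 under all settings tried. Ltb was at 100 against 400 CPM and at 45.1 against 103 CPM, and was the only gene of this list past 2-fold in both pairs. In CD45+ Tom+ its 4 UMIs lay in a single cell, and the counting intervals of the pairs did not both exclude 0. Ccl4 was lower in the CD45+ pair, with -1.15 (-1.60 to -0.72), though 0.50 when both genes of the rule were required. Ccl4 lay closer to 0 in the CD45- pair, with -0.32 (-0.74 to 0.11). In CD45+ Tom-, a single cell held 72 UMIs of Ccl4 and 14 of Ccl3, and another held 51 and 19. Neither cell had a UMI of Klrb1c, so that requiring both genes left them out. Of 9 genes that passed the level in the CD45- pair 3 were lower and none higher past 2-fold. Of 7 in the CD45+ pair 4 were lower and none higher. The medians were -0.70 and -1.03, the latter being the ratio of Ccl3.

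Receptors and their signalling genes differed by pair. Of 10 activating receptor genes other than the 2 of the rule 7 were lower past 2-fold in CD45- Tom+, with a median of -1.29, and 3 of 10 in CD45+ Tom+, with a median of -0.42. None was higher. Klrb1a and Cd7 were the genes lower in both. Klrk1 was lower in the CD45- pair (-1.27, -1.77 to -0.76) and near 0 in the CD45+ pair (0.14, -0.32 to 0.60). The Ly49 and NKG2 genes had medians of -0.41 and 0.24. Zap70, the kinase that binds phosphorylated adaptor tails, was lower in both, at 45.1 against 147 CPM and 45.1 against 140 CPM, with ratios of -1.70 (-3.15 to -0.30) and -1.64 (-3.65 to -0.05). It rested on 9 and 11 UMIs in the CD45- pair and 4 and 19 in the CD45+ pair.

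Transcription factors were the list with most genes lower in both pairs. Of 21 that passed the level in the CD45- pair 13 were lower and none higher, with a median of -1.19, and of 20 in the CD45+ pair 5 were lower and 1 higher, with a median of -0.17. The 5 genes lower in both were Rora, Gata3, Nfil3, Ikzf3 and Tox, of which Gata3 turned to 0.74 in the CD45- pair and Ikzf3 to 0.68 in the CD45+ pair when the cells were thinned, and Tox fell to -0.22 in the CD45+ pair when both genes of the rule were required. Rora, a factor of helper-like innate lymphoid cells, stood at 65.1 against 280 CPM and 101 against 229 CPM, with ratios of -2.11 (-3.23 to -1.04) and -1.17 (-2.43 to -0.07), and was found in 19 cells. Tox, needed for NK development, stood at 20.03 against 240 CPM and 33.8 against 88.6 CPM, with -3.58 (-5.61 to -1.98) and -1.39 (-3.86 to 0.50). Gata3 had -1.22 (-2.88 to 0.47) and -1.85 (-3.85 to -0.29). Eomes, Ets1 and Bcl2 were lower in the CD45- pair alone: the ratios of Eomes were -1.08 (-1.76 to -0.38) and 0.65 (-0.09 to 1.40), those of Ets1 -1.24 (-1.72 to -0.75) and 0.35 (-0.05 to 0.75). Whether the pairs differed was not tested.

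Irf8, Klf2 and Fos were higher in both Tom+ libraries, by less than 2-fold except for Fos in the CD45+ pair. Irf8 stood at 1071 against 587 CPM and 1240 against 850 CPM, with ratios of 0.87 (0.39 to 1.37) and 0.55 (0.15 to 0.93). Klf2, which keeps lymphocytes in circulation, stood at 911 against 480 CPM and 913 against 561 CPM, with 0.92 (0.40 to 1.48) and 0.70 (0.23 to 1.17). The ratios of both genes stayed above 0 under all settings tried. Fos, an immediate early gene that dissociation also raises, was at 1637 against 961 CPM and 1826 against 842 CPM, with 0.77 (0.40 to 1.16) and 1.12 (0.76 to 1.47). Junb, of the same response, had -0.41 and 0.14, and the 17 genes of the dissociation list that passed the level had medians of 0.09 and 0.14. In CD45- Tom+, the cell with endothelial genes held 44 UMIs of Fos and 51 of Klf2. The cell with MHC class II genes held 58 of Fos, 23 of Klf2 and 38 of Irf8. Over the settings tried, which include leaving out both cells, the ratio of Fos ranged from 0.25 to 0.93 in the CD45- pair.

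Of the maturation list, 17 genes passed the level in each pair, with 3 higher and 2 lower past 2-fold in the CD45- pair, 1 higher in the CD45+ pair, and medians of -0.62 and -0.20. Itgam was the gene higher in both, at 85.1 against 40.02 CPM and 192 against 44.3 CPM. Its ratio was 1.09 (-0.70 to 3.50) in the CD45- pair, where CD45- Tom- had 3 UMIs, and 2.11 (0.70 to 3.74) in the CD45+ pair. Ly6c2, a surface antigen, was lower, at 396 against 1468 CPM and 428 against 805 CPM, with -1.89 (-2.33 to -1.46) and -0.91 (-1.48 to -0.37). Emb had ratios of -1.03 (-1.42 to -0.65) and -0.42 (-0.81 to -0.04). Of the ILC1 list 10 genes passed the level in the CD45- pair, with 1 higher and 6 lower, and 7 in the CD45+ pair, with 1 higher and 1 lower. Ltb was the gene lower in both, with the 4 UMIs of CD45+ Tom+ in a single cell. Tmem176a was the gene higher in both, although its CD45- ratio of 1.37 was -0.26 when the cells were thinned. Genes of other cell types moved with these differences. Of 10 macrophage markers 8 had UMIs, with Csf1r and Fcgr1 at 0, and they summed to 1237 against 400 CPM and 947 against 532 CPM, while the 10 progenitor markers, all with UMIs, summed to 260 against 787 CPM and 203 against 650 CPM. Of 10 ILC2 markers 7 had UMIs, with Areg, Il5 and Il13 at 0, and they summed to 215 against 494 CPM and 259 against 569 CPM, with Gata3, Il7r and Rora shared with the lists above. The dendritic cell markers summed to 2949 against 387 CPM and 304 against 347 CPM. The markers of adipocytes and lipid summed to 741 against 93.4 CPM and 67.6 against 81.3 CPM. In CD45- Tom+, 1 cell held 542 of the 589 dendritic UMIs and 1 cell 138 of the 148 adipocyte UMIs. The part of other cells' RNA in the differences was not tested.

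**Figure D5:**
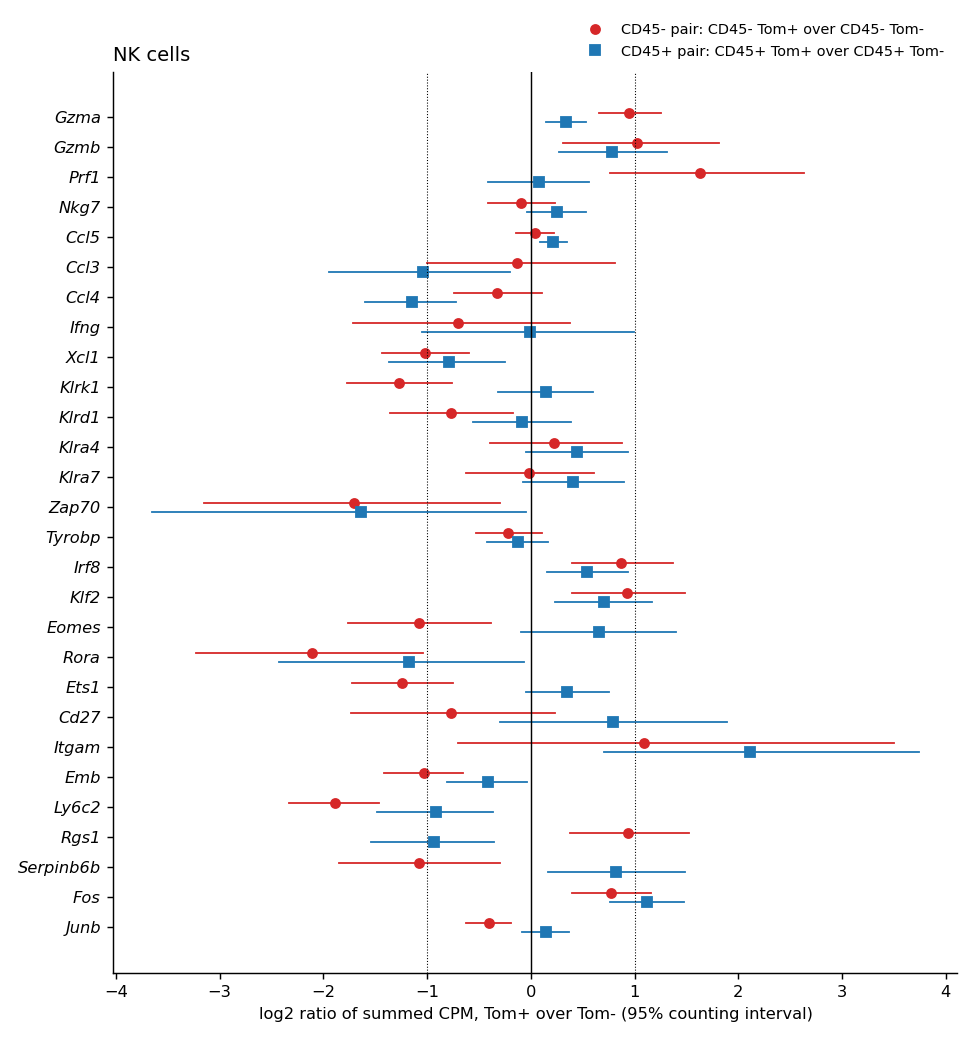
Log2 ratio of the summed CPM of NK cells, Tom+ over Tom-, in the CD45- pair (circles) and the CD45+ pair (squares) for 28 genes, with 95% intervals for counting error; dotted lines mark 2-fold. Gzma, Gzmb, Irf8, Klf2 and Fos lie to the right in both pairs and Xcl1, Zap70, Rora, Emb and Ly6c2 to the left, while Klrk1, Eomes, Ets1, Rgs1 and Serpinb6b lie apart. In the CD45+ pair, Gzma and Gzmb rest on 1 cycling cell.

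Ranked by the smaller ratio of the pairs, the 8 genes highest in the Tom+ libraries were Txndc5, Slpi, Ly6d, Sel1l, Guk1, Sra1, Vegfa and Pdlim5. When the cells were thinned, Vegfa was at -1.26 and Slpi at 0.15 in the CD45- pair and Guk1 could not be compared, and with both genes of the rule required Vegfa was at 0.20 in the CD45+ pair. The first was Txndc5, a protein disulfide isomerase of secretory cells, at 385 against 26.7 CPM and 248 against 14.8 CPM, with ratios of 3.85 (1.95 to 6.92) and 4.07 (2.04 to 7.20). Over the kept barcodes other than NK cells Txndc5 stood at 1017 against 225 CPM and 1079 against 227 CPM, and in CD8 T cells at 253 against 36.8 CPM and 143 against 51.6 CPM. Ly6d was at 155 against 0 CPM and 124 against 7.39 CPM in NK cells, and in CD8 T cells at 123 against 10.5 CPM and 101 against 25.2 CPM. Set against a floor of 3 counts in CD45- Tom-, Ly6d was at least 1.96 and Slpi, a secreted protease inhibitor, at least 2.05 higher on the log2 scale in CD45- Tom+. Like immunoglobulin, Txndc5 and Ly6d differed in the same direction in cells of other kinds, and how much of these counts came from the NK cells was not tested.

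The 8 genes lowest in the Tom+ libraries were Zap70, Chmp1b, Capn1, Tox, Rcsd1, Klrb1a, Dgat1 and Cpsf6. Klrb1a, a lectin-like receptor of the same family as Klrb1c, stood at 85.1 against 227 CPM and 45.1 against 118 CPM. Its ratios were -1.41 (-2.47 to -0.35) and -1.39 (-3.43 to 0.24), and in CD8 T cells it was at 0.598 CPM. Chmp1b, a subunit of the ESCRT machinery, was at 20.03 against 107 CPM and 56.3 against 163 CPM. For 5 of the 8, Tox among them, the CD45+ ratio was the same -1.39, since the UMIs were 3 against 12, 4 against 16 or 5 against 20, so that their order carries no information.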

How the data were processed

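Gonadal adipose stromal vascular cells, sorted on CD45 and tdTomato, were profiled by droplet 3′ single-cell RNA sequencing in 4 libraries, 1 per group. The authors aligned the reads to mm10 and deposited UMI counts per gene and barcode, with Cell Ranger 3.0.2 named in the submitters' processing notes. From these raw counts barcodes were kept by the limits given above on detected genes and mitochondrial UMIs, as in the study's methods, and NK cells were taken by the counts of the genes named above. The members and the gene lists were chosen with earlier results of these data known.

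UMIs were summed over the NK cells of a library and given as CPM of that sum. With 1 library per group no model was fitted and no p-value computed. Levels carry exact Poisson, shares exact Clopper-Pearson and ratios exact conditional intervals, all at 95% and for counting error only, and a gene at 0 was set against a floor of 3 counts. Genes named were those of the lists, the 12 with the largest lowest ratio of NK cells to other kept barcodes at 50 CPM or more in every library, and the 8 largest and 8 smallest ratios of Tom+ to Tom- with the same sign in both pairs. Genes of the rule, immunoglobulin, ribosomal, mitochondrial, predicted and tdTomato genes and other cells' markers were left out of that ranking. Genes singled out beyond this rule, such as those in the cells described individually, were chosen after their values were seen. Doublets were scored with Scrublet in scanpy 1.11.5 and the top 0.8% per 1000 barcodes marked. Alternatives were other barcode filters, member rules, depths, totals, thresholds and the removal of cells. The other work was done in Python 3.11.15 with scipy 1.17.1 and the computations were tested on simulated data. Promoter windows came from RefSeq, and 2 listed genes had no row in the tables.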

Additional observations from a re-analysis of the deposited data

Results flagged for a closer look

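The pairs lay on opposite sides of 0, with counting intervals clear of 0 in each, for 3 listed genes, and the difference between the pairs was not tested. Rgs1, a regulator of G protein signalling that holds lymphocytes in tissue, was higher in CD45- Tom+ than in CD45- Tom- (816 against 427 CPM, log2 ratio 0.93) and lower in CD45+ Tom+ than in CD45+ Tom- (383 against 731 CPM, -0.93). Serpinb6b, a granzyme inhibitor gene, was lower in the CD45- pair (170 against 360 CPM, -1.08) and higher in the CD45+ pair (496 against 281 CPM, 0.82), but after thinning to 2000 UMIs its CD45- ratio was 1.74, on the same side as the CD45+ pair. Btg2, an antiproliferative gene, had -0.51 and 0.51.

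Outside the kept barcodes, 14 others met the rule for NK cells. Of these, 6 had 1000 genes or fewer, 7 had too large a mitochondrial share and 1 had 7000 genes or more. Klrd1 was found in 11 of the 14, Nkg7 in 8 and Gzma in 5, with a median of 2109.5 UMIs per barcode.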

How the results depend on the processing

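No paired analysis was possible because the labels give no replicate numbers and each group had 1 library, so that no replicate could be left out either. The CD45 label is a condition of the study and was not used as a block. The ratio of NK shares, as a value, stayed above 0 in both pairs under every setting, from 0.60 to 1.55 (log2) in the CD45- pair and from 0.19 to 0.98 in the CD45+ pair. Where both Ncr1 and Klrb1c were required, the share was 0.338% in CD45- Tom+ (14 cells) and 0.353% in CD45+ Tom+ (7 cells). Genes past 2-fold numbered 687 in the CD45- pair and 556 in the CD45+ pair. They numbered 926 in the CD45+ pair with both genes required, 1132 and 1012 after thinning to 2000 UMIs, 273 with the libraries of a tdTomato label summed, 251 and 165 at a mean of 100 CPM, 1695 and 1771 at 20 CPM, and 1443 and 1281 at 1.5-fold. The cause was not tested beyond fewer or more UMIs and genes.

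Of 3690 values of 148 genes under the alternatives, 3511 stayed within the counting interval of the reported value and 168 moved outside it. The other 11 changed the sign of a difference past 2-fold whose interval was clear of 0. Among the 3511 were the 296 values without marked doublets and the 296 without barcodes kept in another library. Neither setting removed an NK cell, so that these values could not move. The 11 with a changed sign were Gzmb in the CD45- pair with 3 UMIs of the rule's genes (-0.069), and Ccl3 and Ccl4 in the CD45+ pair with both genes required (0.99 and 0.50), among others. The rest of the 11 lay in the CD45- pair. They were Cd69 with Cd3d and Trac at 0 (0.035), Nr4a1 without cells over 15000 UMIs (-0.18) and, after thinning, Serpinb6b (1.74), Stat4 (0.74), Cd69 (0.24), Tmem176a (-0.26), Nr4a1 (-0.093) and Cd36 (-0.26). Leaving out cells over 15000 UMIs, cells with under 4 of the 10 NK genes, or the cell with most UMIs of a gene were alternatives chosen after seeing the data. Depth limits every comparison: 10 to 24 cells a library resolve only large differences in genes with many UMIs.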
